A study of Mus musculus with 12 samples.

Results

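The cyclooxygenases and the enzymes that act after them on prostanoids were examined as 10 genes, taken by symbol from the 50563 genes of 1 count table. They are the cyclooxygenases Ptgs1 (COX-1) and Ptgs2 (COX-2), the prostaglandin E synthases Ptges, Ptges2 and Ptges3, the prostaglandin D synthases Ptgds and Hpgds, the thromboxane synthase Tbxas1, the prostacyclin synthase Ptgis, and Hpgd, which breaks prostaglandins down. The list was taken by name, with earlier results of these data known. The libraries were poly(A) RNA-Seq of brain cortex from 12 E4FAD mice, 7 CTRL and 5 DPAn-6. Every mouse carried human APOE4 on both alleles (APOE4+/+) and 1 copy of the 5FAD transgenes (5FAD-/+), which a Thy1 promoter drives in neurons, so no mouse without these transgenes was compared. DPAn-6 mice had received n-6 docosapentaenoic acid by gavage every day at 700 mg per kg for 3 weeks. CTRL mice had received the vehicle, and the same antioxidants were given to both groups. The CTRL group held 2 mice of 12 months and 5 of 14 months, and the DPAn-6 group 2 of 12 months and 3 of 14 months, with both sexes in each group.

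Prostanoids are made from arachidonic acid that phospholipases and other lipases release from lipids. The cyclooxygenases turn it into prostaglandin H2, and each terminal synthase turns that intermediate into one product, prostaglandin E2, D2, F2alpha, thromboxane A2 or prostacyclin. In brain, COX-1 is known as a microglial enzyme, COX-2 as an enzyme of excitatory neurons that rises with synaptic activity, Ptgds as a product of the leptomeninges, the choroid plexus and oligodendrocytes, and Hpgds and Tbxas1 as genes of microglia and macrophages. The comparison asks whether the cortex of treated mice held different levels of these mRNAs. Enzyme protein and the prostanoids themselves were not measured.

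The promoters of the genes whose levels are set beside cell markers are shown with 4 motifs in capitals, searched on both strands from 250 bases before to 50 after the RefSeq start (GRCm38.p6, 1 start per gene). Each piece shown runs over the 100 bases before the start, and for Ptgs2 over 30 more after it. Ptgs1, Hpgds and Tbxas1 come first because all 3 hold GAGGAAG, the core that the myeloid factor PU.1 binds.
Ptgs1, chr2:36230326-36230425, plus strand: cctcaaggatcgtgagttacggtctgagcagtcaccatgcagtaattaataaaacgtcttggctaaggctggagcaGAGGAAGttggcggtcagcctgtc
Hpgds, chr6:65144731-65144830, minus strand: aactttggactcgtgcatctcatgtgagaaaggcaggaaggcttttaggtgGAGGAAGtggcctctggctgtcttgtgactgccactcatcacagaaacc
Tbxas1, chr6:38918886-38918985, plus strand: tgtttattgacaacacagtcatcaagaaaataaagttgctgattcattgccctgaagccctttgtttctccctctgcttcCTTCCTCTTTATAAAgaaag
Ptgs2, chr1:150099931-150100060, plus strand: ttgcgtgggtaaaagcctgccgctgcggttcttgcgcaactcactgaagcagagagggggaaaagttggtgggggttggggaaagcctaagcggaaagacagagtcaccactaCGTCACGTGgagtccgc
Ptgds, chr2:25469750-25469849, minus strand: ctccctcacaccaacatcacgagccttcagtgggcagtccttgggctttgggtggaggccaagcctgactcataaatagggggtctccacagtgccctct
The GAGGAAG motif began 24 bases before the start in Ptgs1, 49 before in Hpgds and, on the other strand, 20 before in Tbxas1. It was in 13.6% of the 32851 promoters of the same length. In Tbxas1 it ran up against a TATA box, TATAAA, found on both strands. Ptgs2 held CACGTG, an E-box, which overlapped TGACG, the core of a cAMP response element, on the other strand. CACGTG was in 7.15% and TGACG in 20.8% of all promoters. None of the 4 motifs was found in the Ptgds window. CACGTG also lay before Ptges2, TGACG after the start of Ptges3 and TATAAA after the start of Hpgd. A match is only a match of letters, and binding was not measured.

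The libraries held 15339098 to 19500154 counts on genes in CTRL and 15208803 to 26520251 in DPAn-6. CTRL replicate 3, a mouse of 14 months, stood apart from the other libraries. Its median correlation with its group was 0.961, against 0.985 to 0.990 for the other CTRL mice, and it was the highest or lowest of the CTRL group in 70.2% of genes, where equal shares would give 28.6%. It was the highest CTRL mouse in Ptgs2, Ptges3, Hpgds and Hpgd and the lowest in Ptgs1, Ptges2, Ptgds, Tbxas1 and Ptgis. Results are therefore given with and without it. It was singled out after its values were seen.

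All 10 genes were detected in every mouse and all 10 passed the filter on low counts. Per exonic length, Ptgds stood far above the others, at a mean over 12 mice of 299.1 CPM per kb (SD 86.4), CPM being counts scaled to a common library total, and it alone took 70.5% to 85.4% of the counts on the 10 genes. It ranked at place 54 of 30108 genes. Ptgs1 followed at 6.49 CPM per kb, then Ptges2 at 6.11, Ptges3 at 5.07, Ptgs2 at 3.48, Hpgd at 2.82, Hpgds at 2.26, Ptges at 1.37, Tbxas1 at 0.857 and Ptgis at 0.535. The order held in 12 of 12 mice between Ptgds and Ptgs1, between Hpgds and Ptges and between Ptges and Tbxas1. It did not hold in every mouse for the other neighbours, with Ptgs1 above Ptges2 in 9 mice, Ptges2 above Ptges3 in 10, Ptges3 above Ptgs2 in 11, Ptgs2 above Hpgd in 9, Hpgd above Hpgds in 8 and Tbxas1 above Ptgis in 11. Ptgs1 was above Ptgs2 per length in all 12 mice, at a ratio of 1.24 to 3.12 in CTRL (median 2.17) and 1.44 to 1.83 in DPAn-6 (median 1.62).

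**Figure D1:**
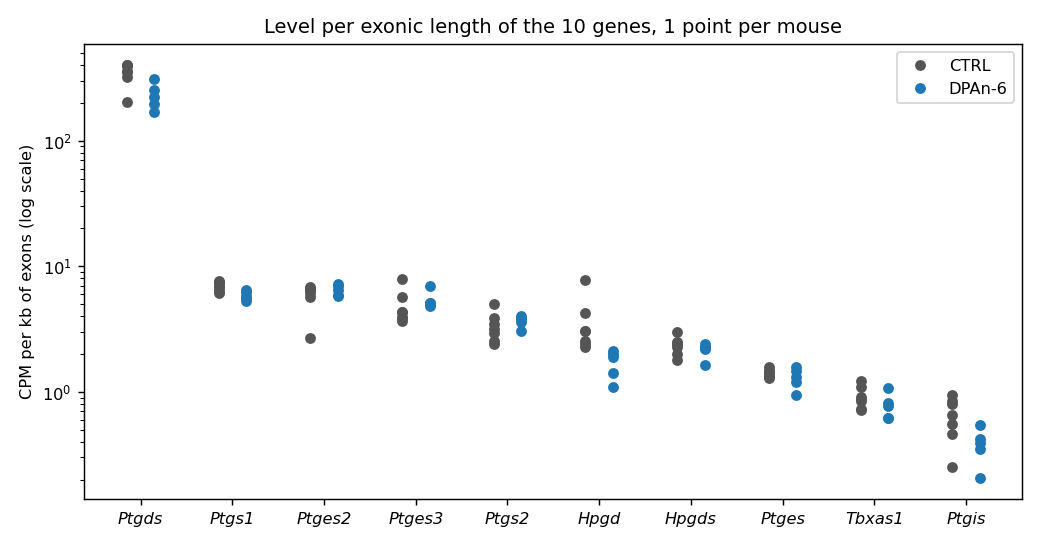
Level of each of the 10 genes in CPM per kb of exons, on a log scale, with 1 point per mouse and the groups side by side. Ptgds lies between 168 and 404 CPM per kb, and no other gene reaches 8.

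Of the 10 genes, 7 were lower and 3 were higher in DPAn-6 mice, with a median log2 fold change of -0.19, against -0.00 over all genes tested. By edgeR's quasi-likelihood test with Benjamini-Hochberg adjustment, 0 of the 10 had an adjusted p below 0.05, where 1.55% of the 15688 genes tested did. An unadjusted p below 0.05 was reached by 4 of the 10, where 14.5% of all genes reached it. All 4 were lower in DPAn-6 mice, where 9.02% of all genes were lower at that level, and they were Ptgs1, Ptgds, Ptgis and Hpgd. DESeq2 gave 3 of the 10 an adjusted p below 0.05, namely Ptgs1 (0.0246), Ptgds (0.0121) and Hpgd (0.0120), where it called 4.44% of all genes. Without CTRL replicate 3, edgeR gave adjusted p-values below 0.05 for 4 of the 10, the same Ptgs1, Ptgds, Ptgis and Hpgd, where it called 6.1% of all genes. Within the 8 mice of 14 months, only Hpgd kept an unadjusted p below 0.05, where 8.96% of all genes had one. The 12-month mice, 2 in each group, were not fitted alone, and their contrast is given with the interaction test.

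**Figure D2:**
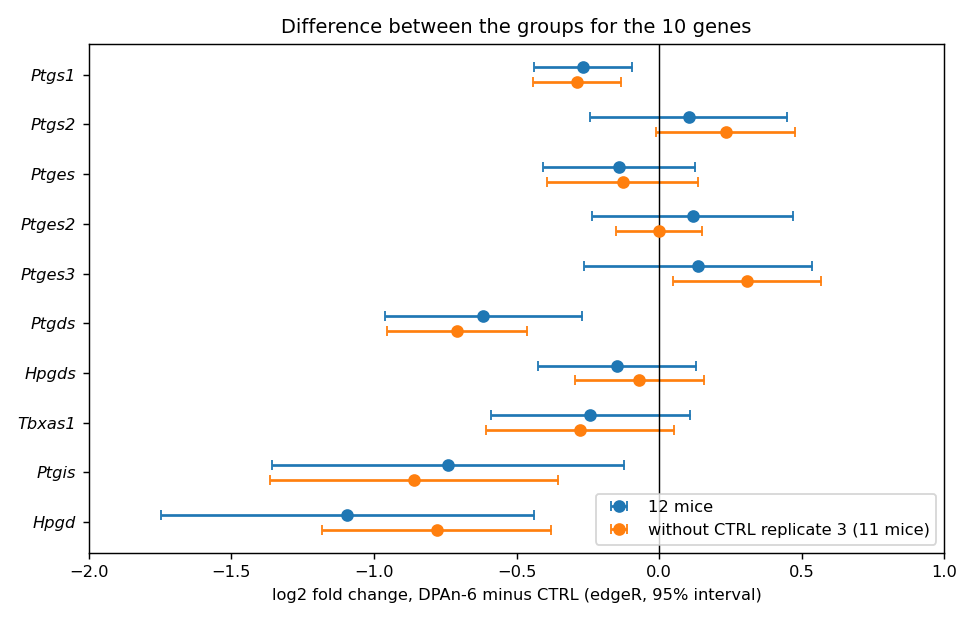
Log2 fold change of DPAn-6 against CTRL for the 10 genes by edgeR, as points with 95% intervals, over 12 mice and without CTRL replicate 3. The intervals of Ptgs1, Ptgds, Ptgis and Hpgd lie below 0 in both fits, and that of Ptges3 lies above 0 without CTRL replicate 3.

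Among the cyclooxygenases, Ptgs1 was lower in DPAn-6 mice and Ptgs2 did not differ beyond the spread between mice. Ptgs1 (ENSMUSG00000047250, chr2:36230426-36252272, plus strand) encodes the constitutive enzyme that low-dose aspirin blocks in platelets. Its log2 CPM, with 368 to 574 counts per mouse, was 4.59 at the lowest, 4.75 at the median and 4.88 at the highest in CTRL, and 4.48, 4.59, 4.36, 4.66 and 4.44 in the 5 DPAn-6 mice. The groups overlapped in 2 DPAn-6 mice, and the other 3 lay lower than any CTRL mouse. The means were 4.75 ± 0.12 (SD, n = 7) and 4.51 ± 0.12 (SD, n = 5). The fitted log2 fold change was -0.27 (SE 0.08), or 0.831 of CTRL, with an edgeR unadjusted p of 0.0045 and an adjusted p of 0.116. The two-sided exact permutation test of the means gave p = 0.0101, where the smallest possible is 0.00126. Without CTRL replicate 3 the log2 fold change was -0.29, with an edgeR adjusted p of 0.0292. The study itself compared Ptgs1 in these samples, so its direction here is not independent evidence.

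Ptgs2 (ENSMUSG00000032487, chr1:150100031-150108227, plus strand) encodes the inducible cyclooxygenase. In CTRL mice its log2 CPM was 3.46 at the lowest, 3.87 at the median and 4.52 at the highest, and DPAn-6 mice had 4.2, 4.14, 4.04, 4.15 and 3.80, so that every DPAn-6 mouse lay within the CTRL range. The log2 fold change was 0.10, with a 95% interval from -0.24 to 0.45 and an edgeR adjusted p of 0.837. Without CTRL replicate 3, the highest CTRL mouse, it was 0.23, with an interval from -0.01 to 0.48. The 10 activity genes, such as Fos, Arc and Npas4, summed to 588 to 1068 CPM in CTRL and 915 to 1089 in DPAn-6. Of these, 8 of 10 were higher. An unadjusted edgeR p below 0.05 was reached by 2 of 10, each of them higher, and by 14.5% of all genes. At that level 865 of the 15688 genes tested were higher. No activity gene had an adjusted p below 0.05.

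The prostaglandin D synthases differed from each other in level and in their values by group. Ptgds (ENSMUSG00000015090, chr2:25466709-25470046, minus strand) encodes the lipocalin-type synthase, which is secreted into cerebrospinal fluid. With 4214 to 12865 counts per mouse, its log2 CPM was 8.39 at the lowest, 9.21 at the median and 9.38 at the highest in CTRL, and 9.0, 8.53, 8.34, 8.11 and 8.69 in DPAn-6. CTRL replicate 3 had the lowest CTRL value, and the other 6 CTRL mice, from 9.06 to 9.38, lay above every DPAn-6 mouse. The means were 9.13 ± 0.35 (SD, n = 7) and 8.54 ± 0.34 (SD, n = 5), the log2 fold change was -0.62 (SE 0.16), or 0.652 of CTRL, and the edgeR adjusted p was 0.0750. The exact permutation test gave p = 0.0202. Without CTRL replicate 3 the log2 fold change was -0.71 with an edgeR adjusted p of 0.00279, and the exact test gave p = 0.00216, the smallest that 6 and 5 mice allow. In the 14-month mice the log2 fold change was -0.40 with an unadjusted edgeR p of 0.0645.

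Hpgds (ENSMUSG00000029919, chr6:65117293-65144908, minus strand) encodes the haematopoietic-type synthase. Its log2 CPM was 3.52, 3.95 and 4.27 at the lowest, median and highest in CTRL, and 3.86, 3.94, 3.40, 3.87 and 3.82 in DPAn-6. Every DPAn-6 mouse but replicate 3 lay within the CTRL range. Its log2 fold change was -0.15 (95% interval from -0.42 to 0.13), with an edgeR adjusted p of 0.680.

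**Figure D3:**
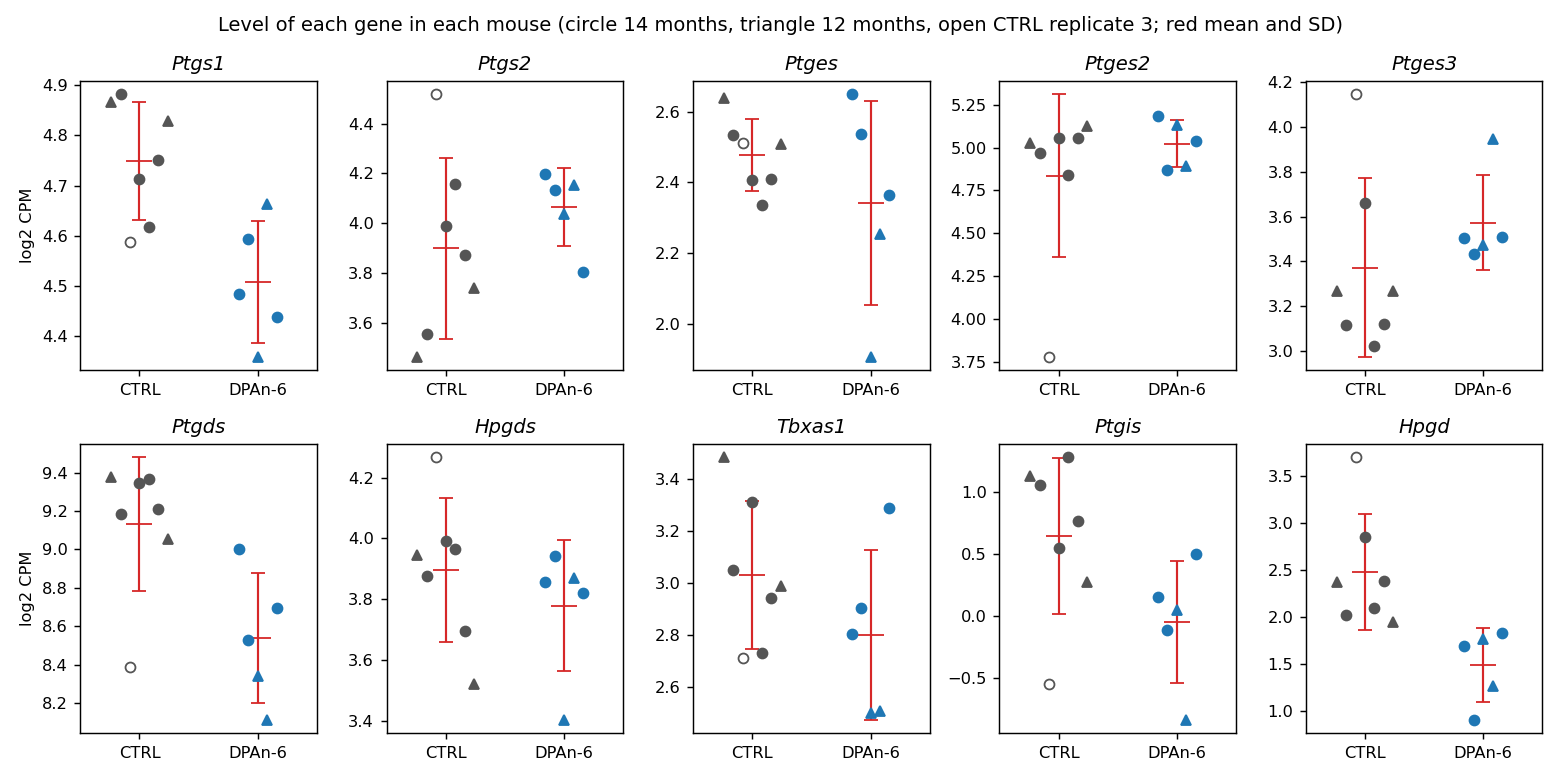
Log2 CPM of each gene in each mouse, with the group mean and SD in red, triangles for 12 months, circles for 14 months and an open circle for CTRL replicate 3. The groups do not overlap in Hpgd, and in Ptgds CTRL replicate 3 alone, at 8.39, lies among the DPAn-6 mice.

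None of the 3 prostaglandin E synthases differed between the groups beyond the spread between mice when all 12 were used. Ptges (ENSMUSG00000050737, chr2:30889471-30929863, minus strand), the microsomal synthase that works with COX-2 in inflammation, had a log2 CPM of 2.34, 2.51 and 2.64 at the lowest, median and highest in CTRL and 2.65, 2.54, 1.91, 2.25 and 2.36 in DPAn-6. DPAn-6 mice included both the highest and the lowest value of all 12. Its log2 fold change was -0.14 (95% interval from -0.41 to 0.12), with an edgeR adjusted p of 0.679.

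Ptges2 (ENSMUSG00000026820, chr2:32395896-32405772, plus strand), a membrane-associated synthase, was even across mice apart from 1 library. CTRL mice had a log2 CPM of 3.78, 5.03 and 5.13 at the lowest, median and highest, and DPAn-6 mice 5.18, 4.87, 5.13, 4.89 and 5.04. The 3.78 was CTRL replicate 3, and the next CTRL mouse was at 4.84. With it the log2 fold change was 0.12 (95% interval from -0.23 to 0.47, edgeR adjusted p = 0.814), and without it -0.000804 (95% interval from -0.15 to 0.15).

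Ptges3 (ENSMUSG00000071072, chr10:128058954-128077272, plus strand) encodes the cytosolic synthase, better known as p23, a co-chaperone of Hsp90. Its log2 CPM was 3.02, 3.27 and 4.15 at the lowest, median and highest in CTRL, and 3.50, 3.43, 3.47, 3.95 and 3.51 in DPAn-6. All 5 DPAn-6 mice were above the CTRL mean but below CTRL replicate 3. For Ptges3 the log2 fold change was 0.13 (SE 0.19, edgeR adjusted p = 0.811), and without CTRL replicate 3 it was 0.31 with an unadjusted edgeR p of 0.0228 and an adjusted p of 0.147. Another gene matches 24.0% of its transcript at 95% identity or more over at least 50 bases. Part of the Ptges3 count is therefore uncertain, and how much was not tested. That gene held 74 counts over the 12 mice against 2435 on Ptges3, which does not show how reads of the shared stretch were counted.

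The thromboxane and prostacyclin synthases were the scarcest of the 10 per length. Tbxas1 (ENSMUSG00000029925, chr6:38875404-39084585, plus strand) makes thromboxane A2, which constricts vessels and activates platelets. Its log2 CPM was 2.71, 2.99 and 3.49 at the lowest, median and highest in CTRL, and 2.80, 2.90, 2.5, 2.51 and 3.29 in DPAn-6, and 4 of the 5 treated mice lay lower than the CTRL mean. The log2 fold change was -0.24 (95% interval from -0.59 to 0.11), with an edgeR adjusted p of 0.555 and an exact permutation p of 0.220. Without DPAn-6 replicate 5, the highest of its group, the log2 fold change was -0.38 with an unadjusted edgeR p of 0.0304. Stretches making up 2.72% of its transcript match 162 other genes, so part of its count is also uncertain, and how much was not tested. Those genes held 1725527 counts over the 12 mice against 1723 on Tbxas1. That number is over the whole genes and not over the matched stretches.

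Ptgis (ENSMUSG00000017969, chr2:167191805-167240604, minus strand) makes prostacyclin, which opposes thromboxane. It had only 8 to 47 counts per mouse, with a log2 CPM of -0.55, 0.76 and 1.28 at the lowest, median and highest in CTRL and 0.16, -0.11, 0.04, -0.84 and 0.50 in DPAn-6. Each of the 5 lay lower than the mean of CTRL, while CTRL replicate 3 was below 4 of them. The log2 fold change was -0.74 (SE 0.29), or 0.599 of CTRL, with an unadjusted edgeR p of 0.0216 and an adjusted p of 0.241, and the exact permutation test gave p = 0.0682. Without CTRL replicate 3 the log2 fold change was -0.86 with an edgeR adjusted p of 0.0424. Leaving out CTRL replicate 5 gave an unadjusted p of 0.0526, and leaving out DPAn-6 replicate 4 gave 0.0596. Exons of Ptgis share 156 bases with 1110018N20Rik on the opposite strand, which had 62 to 153 counts, and which strand was counted is not given, so reads of these genes cannot be told apart where they overlap.

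Hpgd showed the largest fold change of the 10 over the 12 mice and was the only one whose groups did not overlap. Hpgd (ENSMUSG00000031613, chr8:56294585-56321043, plus strand) encodes the dehydrogenase that oxidises prostaglandins E2 and F2alpha to products of little activity. Its log2 CPM was 1.94, 2.37 and 3.70 at the lowest, median and highest in CTRL, and 1.69, 0.91, 1.76, 1.26 and 1.83 in DPAn-6. Every DPAn-6 mouse was below every CTRL mouse, which was so for 1.49% of all genes tested. The gap was small, from 1.83 to 1.94, and the gene had 33 to 199 counts per mouse.

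The means of Hpgd were 2.48 ± 0.62 (SD, n = 7) and 1.49 ± 0.39 (SD, n = 5), and the log2 fold change was -1.09 (SE 0.31), or 0.469 of CTRL, with an edgeR adjusted p of 0.0954. The exact permutation test gave p = 0.00505. The 3.70 was CTRL replicate 3, and without it the log2 fold change was -0.78, or 0.582 of CTRL, with an edgeR adjusted p of 0.0230. Without that mouse, Hpgd and Ptgds were the 2 genes of the 10 with every DPAn-6 mouse below every CTRL mouse, which was so for 2.49% of genes. In the 14-month mice the log2 fold change of Hpgd was -1.24, with an unadjusted edgeR p of 0.0123.

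Whether the difference between the groups changed with age was tested as an interaction in edgeR. Of the 10 genes, 2 had an unadjusted p below 0.05, where 4.26% of all genes did, and 0 had an adjusted p below 0.05 by edgeR or by limma-voom. Tbxas1 had a log2 fold change of -0.76 at 12 months and 0.02 at 14 months (edgeR unadjusted p = 0.0217, adjusted p = 0.905). At 12 months both DPAn-6 mice, at 2.5 and 2.51, lay below both CTRL mice, at 3.49 and 2.99. Ptges had -0.50 at 12 months and 0.05 at 14 months (edgeR unadjusted p = 0.0354, adjusted p = 0.905). Ptgds was -0.997 at 12 months and -0.41 at 14 months (edgeR unadjusted p = 0.0817). These contrasts rest on 2 mice per group at 12 months.

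Of the 18 other genes of the pathway, 15 passed the filter on low counts, of which 11 were lower and 4 higher in DPAn-6 mice (median log2 fold change -0.10). An unadjusted p below 0.05 by edgeR was reached by 4, all lower, and an adjusted p below 0.05 by 1, where the shares of all genes were 14.5% and 1.55%. The 4 were 2 transporters of prostaglandins, from 4 genes of transport and breakdown tested, and 2 receptors, from 6 tested. The genes that supply arachidonic acid (Pla2g4a and Mgll) and those of prostaglandin F synthesis (Akr1b3, Cbr1 and Prxl2b) had log2 fold changes from -0.12 to 0.03, with 0 of 5 at an unadjusted p below 0.05. Mgll, the lipase that frees arachidonic acid from 2-arachidonoylglycerol in brain, was the most abundant of the pathway genes at 65.0 CPM per kb, with a log2 fold change of 0.03 (95% interval from -0.17 to 0.23). Prxl2b, a prostamide and prostaglandin F synthase, was next at 37.4 CPM per kb, with a log2 fold change of -0.10 (95% interval from -0.52 to 0.32). CTRL replicate 3 had its lowest value, a log2 CPM of 3.91, where the lowest DPAn-6 mouse had 5.11. Without that mouse Prxl2b was 0.848 and Akr1b3 0.867 of CTRL, against 0.932 and 0.917 with it. Pla2g4a, Mgll and Cbr1 were then at 1.05, 0.975 and 0.971 of CTRL. Of all pathway genes tested, 5 then had an unadjusted edgeR p below 0.05.

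Abcc4, an exporter that pumps prostaglandins out of cells, was the pathway gene with the smallest p. Its log2 CPM was 4.47, 4.67 and 4.98 at the lowest, median and highest in CTRL, and 4.29, 4.45, 4.29, 4.21 and 4.31 in DPAn-6. Every DPAn-6 mouse was below every CTRL mouse, by a gap of 4.45 to 4.47, which was so for 1.49% of all genes tested. Its log2 fold change was -0.45 (SE 0.10), with an edgeR adjusted p of 0.0442, but the adjusted p was below 0.05 in only 6 of 21 alternatives, which ranged from 0.00249 to 0.442. Slco2a1, the transporter that takes prostaglandins up for breakdown, had a log2 fold change of -0.53 (SE 0.18, edgeR unadjusted p = 0.0102, adjusted p = 0.170). It was low, with 26 to 52 counts per mouse.

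Of 9 receptor genes, 6 passed the filter. All 6 had an edgeR log2 fold change below 0, from -0.72 to -0.03, as did 8048 of the 15688 genes tested. Ptger3 (-0.04) and Tbxa2r (-0.03) did not differ beyond the spread between mice (edgeR adjusted p = 0.960 and 0.981). Their mean log2 CPM was slightly higher in DPAn-6, at 1.91 against 1.87 and 0.07 against 0.01. Without CTRL replicate 3 Ptger3 was 1.05 and Tbxa2r 0.901 of CTRL. Ptger4, a prostaglandin E2 receptor that raises cAMP, had a log2 fold change of -0.44 (SE 0.16, edgeR unadjusted p = 0.0163, adjusted p = 0.212). Ptgfr, the prostaglandin F2alpha receptor, had one of -0.72 (SE 0.33, edgeR unadjusted p = 0.0445, adjusted p = 0.328). They had 20 to 42 and 8 to 30 counts per mouse. Ptger2, Ptgdr2 and Ptgir had at most 12 counts in any mouse and did not pass the filter. With no filter all 18 pathway genes were tested and 5 had an unadjusted p below 0.05, the added one being Ptgir, the prostacyclin receptor, at a log2 fold change of -1.35 (edgeR unadjusted p = 0.0154, adjusted p = 0.329) on 1 to 8 counts per mouse.

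Markers of the cells known to hold these enzymes also differed between the groups. Of all genes tested, 9.02% were lower at an unadjusted p below 0.05, and 1.55% had an adjusted p below 0.05 in either direction. All 12 microglial markers, such as P2ry12, Tmem119, Csf1r and C1qa, were lower in DPAn-6 mice, 9 at an unadjusted and 2 at an adjusted p below 0.05 by edgeR, at a median log2 fold change of -0.46. They summed to 926 to 1338 CPM in CTRL and 698 to 928 in DPAn-6, and none was at 0 in any mouse. All 12 leptomeningeal markers, such as Dcn, Lum, Col1a2 and Slc22a6, were lower, 10 at an unadjusted and 6 at an adjusted p below 0.05, with a median of -0.81. They summed to 164 to 318 CPM in CTRL and 96.1 to 192 in DPAn-6, with none at 0 in any mouse. The 5 border macrophage markers tested, of 7, were all lower at an unadjusted p below 0.05, with a median of -1.29, and the 7 markers summed to 11.3 to 17.0 and 4.94 to 7.14 CPM. In bulk cortex, fewer cells of a type and less RNA per cell cannot be told apart.

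The other lists varied in direction and size. Of the 15688 genes tested, 1415 were lower and 865 higher at an unadjusted p below 0.05, and 243 had an adjusted p below 0.05. Oligodendrocyte markers were higher for 8 of 10 genes, 5 at an unadjusted p below 0.05, at a median of 0.21 on the log2 scale, and summed to 5204 to 6895 CPM in CTRL and 6117 to 6963 in DPAn-6. Choroid plexus markers were lower for 7 of 7 tested genes of 10, 6 at an unadjusted and 0 at an adjusted p below 0.05, at a median of -2.71, with sums of 14.3 to 1749 CPM in CTRL and 9.98 to 27.6 in DPAn-6, and 2 of the 10 were at 0 in some mouse. The sums of CTRL replicates 2, 5 and 3 were the highest, at 1749, 1089 and 231 CPM. The log2 CPM of Ptgds in these mice was 9.19, 9.37 and 8.39. CTRL replicates 1 and 4, with sums of 34.2 and 37.8 CPM, had Ptgds at 9.38 and 9.35. Beyond the correlation of this pair, counted with the other pairs below, the part of choroid plexus in Ptgds was not tested. Mural markers were lower for 8 of 8, 4 at an unadjusted and 1 at an adjusted p below 0.05, with a median of -0.26, and their sums did not overlap, at 325 to 372 CPM in CTRL and 285 to 304 in DPAn-6. Astrocyte markers were lower for 7 of 8, 4 at an unadjusted p below 0.05, with a median of -0.18. Endothelial and excitatory neuron markers had medians of -0.06 and 0.04.

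Correlations were run for 9 pairs of a gene with a marker list. Ptgs1, Hpgds and Tbxas1 were paired with microglial markers, and Hpgds also with border macrophage markers. Ptgds was paired with leptomeningeal, oligodendrocyte and choroid plexus markers, Ptgis with leptomeningeal markers and Ptgs2 with the activity genes. Within the groups, each centred on its mean, 0 of the 9 were correlated at an adjusted permutation p below 0.05 over all 12 mice. Values are given only for Ptgs1 and Tbxas1 with microglial and Ptgds with leptomeningeal markers. Ptgs1 and the microglial markers had a pooled Pearson r of 0.799 (permutation p = 0.00217, adjusted over 9 pairs 0.0195) and a Spearman rho of 0.755 (permutation p = 0.00629, adjusted 0.0566). The pooled r includes the difference between the groups. Within groups, r was 0.540 (permutation p = 0.0899, adjusted 0.285) and rho 0.385 (permutation p = 0.239, adjusted 0.538), and with the 2 mice most distant from the list's median left out r was 0.244. With CTRL replicate 3 left out, r within groups was 0.658 (permutation p = 0.0375, adjusted 0.113) and rho 0.518 (permutation p = 0.124, adjusted 0.280), and r was 0.441 without the 2 farthest mice. Tbxas1 and the microglial markers had an r within groups of 0.690 (permutation p = 0.0204, adjusted 0.184) and a rho of 0.755 (permutation p = 0.00933, adjusted 0.0840), and r was 0.461 without the 2 farthest mice.

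Ptgds and the leptomeningeal markers differed most with and without CTRL replicate 3. That mouse had the highest leptomeningeal sum of all, 318 CPM, and the lowest CTRL value of Ptgds. Over 12 mice r within groups was 0.298 (permutation p = 0.368, adjusted 0.806) and rho 0.510 (permutation p = 0.120, adjusted 0.437). Over the other 11 mice r within groups was 0.924 (permutation p = 0.00062, adjusted 0.00558) and rho 0.909 (permutation p = 0.00181, adjusted 0.0089), and r was 0.940 without the 2 farthest mice. Without CTRL replicate 3 the only other pair past 0.05 within groups was Tbxas1 with the microglial markers, at r = 0.777 (permutation p = 0.00974, adjusted 0.0438) and rho = 0.864 (permutation p = 0.00197, adjusted 0.0089), with r of 0.610 without the 2 farthest mice. Within the 8 mice of 14 months, CTRL replicate 3 included, r within groups was -0.151 for Ptgds with leptomeningeal markers, 0.377 for Ptgs1 and 0.511 for Tbxas1 with microglial markers, and none passed 0.05. The part of the cell markers in the differences of Ptgs1, Ptgds, Ptgis and Hpgd was not tested.

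**Figure D4:**
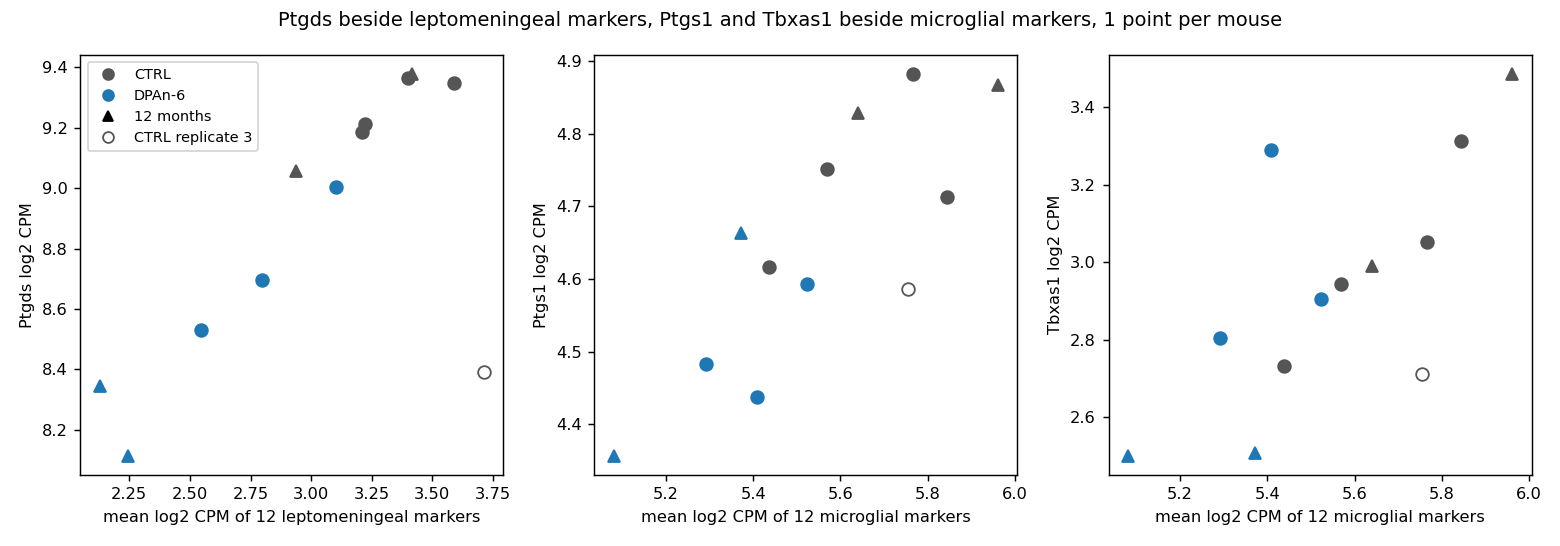
Log2 CPM of Ptgds against the mean log2 CPM of 12 leptomeningeal markers, and of Ptgs1 and Tbxas1 against that of 12 microglial markers, with 1 point per mouse. CTRL replicate 3, the open circle, lies apart from the other mice in the Ptgds panel, at the highest marker level and a Ptgds value of 8.39.

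The genes most like each of the 10 were found among 12067 genes by Pearson r over the 12 mice within groups, as a description. Nearest to Ptges were St14 (0.978), Pld4 (0.971) and Fblim1 (0.915), at 0.981, 0.978 and 0.919 without CTRL replicate 3. Nearest to Tbxas1 were Cryzl2 (0.938), the lysosomal protease Ctsb (0.911) and the complement gene C1qc (0.910), at 0.905 to 0.942 without that mouse. Nearest to Ptgds were Mgp (0.903), the matrix Gla protein, Eva1a (0.890) and Nt5c (0.889), at 0.832, 0.755 and 0.754 without that mouse. Their log2 fold changes were -0.89, -0.02 and -0.10. Ptgs1 was nearest to Smpdl3b (0.883), Zfp36l2 (0.880) and Rpl31 (0.875).

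In the other 6 genes CTRL replicate 3 was the highest or the lowest CTRL mouse, and r to the nearest gene was lower without it. The same mouse was also the lowest CTRL mouse in Ptgs1, Ptgds and Tbxas1, and r of Ptgds with Mgp was lower without it too. Ptgs2 was nearest to Dlgap1 (0.958), Asb7 and Nrg3, Ptges2 to Polr1c (0.990), Mrps7 and Cyc1, and Ptges3 to Rbm12b2 (0.978), Mmd and Brix1. Hpgds was nearest to 4931406C07Rik (0.929), Twsg1 and Igfbp5, Ptgis to Mbtps1 (0.946), H13 and Slc25a28, and Hpgd to Sbds (0.930), Gm13509 and Tceal6. Without that mouse the r of the first named was 0.931 for Ptgs2, 0.899 for Ptges2, 0.940 for Ptges3, 0.885 for Hpgds, 0.903 for Ptgis and 0.831 for Hpgd.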

How the data were processed

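RNA-Seq was measured in cortex of 12 mice, 1 library per mouse. Poly(A) libraries were made with a KAPA mRNA kit, and the authors aligned the reads with STAR 2.5.3a to GRCm38 and deposited raw gene counts without scaling. Which strand was counted is not given in the sources used here. Of 50563 gene identifiers, 50339 were matched to GENCODE M21, which gave names, positions and exonic lengths. The 10 genes, the pathway list and the marker lists were chosen with earlier results of these data known.

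Log2 CPM was computed from counts plus 0.5 and the total on genes. Depth was 15208803 to 26520251 counts, and low counts limit the precision of Ptgis and the receptors. Group differences were fitted in edgeR 4.0.16 (R 4.3.3, TMM, filterByExpr, glmQLFit, glmQLFTest, no covariate), adjusted over all 15688 genes tested, and single genes by a two-sided exact permutation test. Alternatives were limma-voom (limma 3.58.1), DESeq2 1.42.0, and other scalings, filters and covariates. Further ones were the 14-month mice alone, replicate numbers as a block and 1 mouse left out at a time. The study named limma-voom and chose its affected genes by a two-tailed t-test. Correlations used 100000 resamples (Python 3.11.15, numpy 2.4.6, scipy 1.17.1, pandas 2.3.3). Tests were tried on simulated data first, in which DESeq2 made more false calls than edgeR. All 10 genes were named. Pathway genes were named at an unadjusted p below 0.05 or as the 2 most abundant per length, and for each of the 10 genes the 3 nearest in r were sought among genes with a mean log2 CPM of at least 2. Motifs and promoters came from RefSeq (GRCm38.p6), in which 9 of the 10 genes had an entry and Ptgis had none. No library was left out of the main values. The edgeR and exact tests set a group difference against the spread between mice, each of which is 1 sample.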

Additional observations from a re-analysis of the deposited data

Results flagged for a closer look

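Each gene was looked at in each group for a mouse far from the others by Dixon's criterion, which chance alone meets in about 1 of 20 groups. It was met in 4 of 20 groups. Ptges2 was lowest in CTRL replicate 3, at a log2 CPM of 3.78, with a gap to the next mouse of 0.786 of the group's range. Ptgds was lowest in the same mouse, at 8.39, with a gap of 0.674 of the range. Ptges3 was highest in DPAn-6 replicate 4, at 3.95, with a gap of 0.854 of the range. Hpgds was lowest in DPAn-6 replicate 3, at 3.40, with a gap of 0.771 of the range.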

How the results depend on the processing

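Over 21 alternatives for each of 10 genes, 198 of 210 fold changes kept their direction and their side of an unadjusted p of 0.05. Tbxas1 and Ptges3 each passed 0.05 once, without DPAn-6 replicate 5 (-0.38) and without CTRL replicate 3 (0.31). Hpgd kept both in all 21, from -1.24 to -0.78. With 14-month mice only, the log2 fold changes of Ptgs2 (-0.0276), Ptges (0.0566), Ptges3 (-0.0260) and Tbxas1 (0.0318) changed sign, as did the differences of means for Ptges (0.0768) and Tbxas1 (0.0491). With 1 mouse left out Ptges2 ranged from -0.000804, without CTRL replicate 3, to 0.166. Genes of the 10 with an adjusted p below 0.05 numbered 0 with edgeR, 0 with limma-voom and 3 with DESeq2. With 1 mouse left out they numbered 0 to 4, the 4 without CTRL replicate 3. Those with an unadjusted p below 0.05 numbered 4, and 1 with 14-month mice only. Pathway genes with an unadjusted p below 0.05 numbered 4, 2 with 14-month mice only and 2 to 5 with 1 mouse left out, the 2 without DPAn-6 replicate 3. All genes with an adjusted p below 0.05 numbered 243, 696 with DESeq2, 9 with 14-month mice only and 64 (without DPAn-6 replicate 3) to 953 (without CTRL replicate 3) with 1 mouse left out, over 1.5 times off for every mouse but CTRL replicates 5 and 7. Pairs with a marker list past 0.05 numbered 0, and 0 to 2 with 1 mouse left out, the 2 without CTRL replicate 3. The cause of these changes was not tested. The replicate numbers did not pair the mice, since same-numbered mice correlated from -0.126 to 0.219 and 0 of 5 DPAn-6 mice correlated best with their own number. With the replicate number as a block, 79 genes had an adjusted p below 0.05, with 0 of the 10 genes below that level and 4 at an unadjusted p below 0.05, and 4 pathway genes at the latter.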
